A study of Mus musculus with 12 samples.

Results

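The regions described here are short stretches of the mouse genome that gathered more reads without any antibody than most regions of their tables. Each of the 2 deposited comparison tables, FAD versus WT and FAD-BIX versus FAD, lists regions called in H3K9me2 ChIP-seq libraries. From each table, regions on autosomes or unplaced contigs that were narrower than 1000 bp and had a mean of at least 0.6 RPM (reads scaled to library size) over the 4 input libraries were selected on those measured input values, and 1 region at Thy1 was left out. The selection held 741 of 33787 regions (2.19%) in the FAD versus WT table and 741 of 43680 (1.70%) in the FAD-BIX versus FAD table. The equal sizes arose from separate selections: 332 regions had the same coordinates in both lists, and 453 (61.1% of each list) matched at 50% reciprocal overlap.

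The FAD-BIX group was FAD mice given the inhibitor BIX01294, the FAD group was mice with familial Alzheimer's disease mutations, and the WT group was wild-type mice. There were 2 mice in each of the 3 groups, and each mouse gave a ChIP and an input library, 12 libraries in all. All mice were C57BL/6 and 5 to 6 months old, and the tissue was prefrontal cortex punches. The mutations, their promoter, the dose of BIX01294 and any vehicle given to the other mice are not given in the sources used here.

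H3K9me2 is a histone mark of repressed chromatin. It is placed mainly by the methyltransferases EHMT1 (GLP) and EHMT2 (G9a), which BIX01294 inhibits, and in neurons it covers broad domains that hold silent genes. Input DNA is sheared chromatin sequenced without the antibody step, so its reads should spread evenly over unique sequence. Where a sequence has many near-identical copies, or more copies in the animal than in the reference assembly, input reads pile up, and a peak there has to be read against the input of the same mouse. How reads were shared out among near-identical copies is unknown here, so the counts of single members of gene families are uncertain. No repeat annotation and no genome sequence were used here, so the repeat content of the regions was not measured, and they are called regions high in input.

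The libraries held 20.4 to 26.6 M reads in ChIP and 13.9 to 23.8 M reads in input. The region at Thy1, a gene whose promoter drives the transgene in several mouse lines with such mutations, checks the labels. Its ChIP signal was 0.201 RPM in the library labelled FAD 1 and 40.4 RPM in FAD 2, against 0.245 and 0.113 RPM in WT 1 and WT 2. FAD-BIX 1 and FAD-BIX 2 had 27.9 and 24.96 RPM in their table. The ChIP library labelled FAD 1 was thus at the WT level, and its input also was (0.697 RPM, against 24.1 RPM in FAD 2). Whether that mouse carried the mutations cannot be told from the files, so FAD stands below for the label alone, and a comparison with the FAD group may rest on 1 mouse of that genotype, FAD 2. The same ChIP library had 91.8 RPM (here without the 1 read that the deposited values add) summed over 34 regions at 8 of 16 heart muscle genes, against 28.1 in FAD 2 and 15.5 and 12.6 in the WT mice, while the inputs were between 9.23 and 12.2. In the other table the sum over 45 regions at 9 of the 16 genes was 21.1 and 20.5 in FAD-BIX, against 98.8 and 31.5 in FAD. No region was listed at Myh7, Myl2, Myl7, Actn2, Tnnc1, Tnni3 or Tnnt2 in either table. Among the 741 regions the heart genes were represented by Myh6 and Actc1 in the FAD versus WT table and by Actc1 in the other, and no listed marker of neurons, astrocytes, oligodendrocytes, microglia or endothelial cells was among them. The part of these differences in the results was not tested. The counts of the ChIP and ratio tests and each tested region named below are also given without the mouse labelled FAD 1, which leaves FAD 2 alone in its group.

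Where the start of a RefSeq gene lay inside a region, its promoter window shows how repeated such DNA can be. The windows below run from 250 bases before to 50 after the start (RefSeq, GRCm38.p6), 5′ to 3′ on the gene's strand, and capitals mark bases that lie in 20-base words also found, on either strand, in the window of another gene. They are shown because they span the range from a window that shares most of its words with others to one that shares none. Gm9758 (chr5:14914840-14915139, minus strand) is a predicted gene beside Speer4e, of a rodent family of testis-expressed genes. LOC115490388 (chr6:3182866-3183165, plus strand) and 4931408C20Rik (chr1:26687411-26687710, minus strand) are uncharacterised genes. Trpv5 (chr6:41680674-41680973, minus strand) encodes an epithelial calcium channel.
Gm9758: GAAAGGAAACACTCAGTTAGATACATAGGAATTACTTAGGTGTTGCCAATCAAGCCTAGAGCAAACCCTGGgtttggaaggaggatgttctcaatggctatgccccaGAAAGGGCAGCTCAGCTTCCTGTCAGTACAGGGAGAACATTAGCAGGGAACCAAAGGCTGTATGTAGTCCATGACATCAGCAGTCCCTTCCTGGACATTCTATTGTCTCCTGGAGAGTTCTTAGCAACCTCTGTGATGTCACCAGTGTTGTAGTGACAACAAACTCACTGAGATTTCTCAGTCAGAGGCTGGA
LOC115490388: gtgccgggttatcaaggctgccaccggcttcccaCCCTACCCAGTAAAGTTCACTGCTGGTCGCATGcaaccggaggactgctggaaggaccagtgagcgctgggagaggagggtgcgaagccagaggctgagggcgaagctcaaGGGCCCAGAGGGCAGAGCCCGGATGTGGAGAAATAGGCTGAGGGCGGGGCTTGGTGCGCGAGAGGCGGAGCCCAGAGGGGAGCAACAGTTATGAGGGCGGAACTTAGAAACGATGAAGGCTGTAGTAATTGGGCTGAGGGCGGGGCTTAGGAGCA
4931408C20Rik: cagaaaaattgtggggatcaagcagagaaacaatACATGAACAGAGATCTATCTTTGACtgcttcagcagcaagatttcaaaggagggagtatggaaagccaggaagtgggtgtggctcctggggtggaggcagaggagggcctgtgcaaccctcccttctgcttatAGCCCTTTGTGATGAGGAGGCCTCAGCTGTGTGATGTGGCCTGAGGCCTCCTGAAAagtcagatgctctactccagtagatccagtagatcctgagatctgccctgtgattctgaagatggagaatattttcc
Trpv5: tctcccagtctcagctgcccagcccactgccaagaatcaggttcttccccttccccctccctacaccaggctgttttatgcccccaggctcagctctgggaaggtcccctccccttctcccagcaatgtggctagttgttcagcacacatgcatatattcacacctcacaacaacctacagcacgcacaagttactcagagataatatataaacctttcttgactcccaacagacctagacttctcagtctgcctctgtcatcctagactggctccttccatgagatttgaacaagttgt

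Of the 281 words in a window, 226 of Gm9758 recurred in the windows of 32 other genes, among them Gm21083, Speer4c, Gm17019 and Speer4e. LOC115490388 shared 99 words with 4 genes and 4931408C20Rik shared 43 with 3 genes, whereas Trpv5 shared 0. Of the 32851 windows in the table, 61.3% shared 0 words, 15.5% shared at least 100 and 8.01% at least 200. The region at Gm9758 had 92 and 76 ChIP reads in FAD 1 and FAD 2, against 29 and 73 in WT 1 and WT 2, with 17 and 10 input reads in FAD, against 16 and 9 in WT. The region at Trpv5, close to the input minimum at 0.617 RPM, had 10 and 27 ChIP reads in FAD, against 23 and 12 in WT, with 10 and 2 input reads in FAD, against 10 and 17 in WT. An input above the minimum was thus seen both at a window rich in shared words and at one with none. Words were compared only among promoter windows, so copies elsewhere in the genome were not looked for.

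The regions were wide for their tables and held more reads than the rest. RPM was not divided by width, so a wider region reached the minimum more easily, and the selection fixed part of the greater width. Per kb the median input was 2.01 RPM against 0.710 RPM in the other eligible regions for FAD versus WT. For FAD-BIX versus FAD it was 1.80 against 0.693 RPM. Their median width was 503 bp (240 to 999 bp) against 326 bp for the other eligible regions of the FAD versus WT table, and 518 bp (240 to 990 bp) against 322 bp in the FAD-BIX versus FAD table. A library had a median of 30 to 49 ChIP reads and 10 to 22 input reads in a region; in FAD 1, for example, the median ChIP signal was 1.56 RPM, against 0.521 RPM in the other regions. The median of the mean input was 0.853 RPM against 0.250 RPM, and 0.796 RPM against 0.241 RPM, a difference that the selection fixed. Mean input reached 1 RPM at 306 regions of the FAD versus WT table, 2 RPM at 119 and 10 RPM at 28, with counts of 262, 102 and 23 in the other table. Just inside the minimum lay chr15:4438156-4439112 with 0.6004 RPM of input and a log2 ChIP over input of 1.06, and just outside it chr4:25116157-25116985 with 0.5994 RPM and 1.52. The regions covered 399 kb in the first table and 402 kb in the second, and 124 and 140 further regions reached the input minimum but were too wide.

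Every region stood in its table because a ChIP peak was called there in at least 1 library, and the margin of ChIP over input was smaller in these regions than in the rest. The median log2 ChIP over input was 0.79 and 1.65 in FAD 1 and FAD 2 and 0.45 and 0.59 in WT 1 and WT 2, while the other regions had 1.08 and 2.27 in FAD, against 0.96 and 0.87 in WT. In the FAD-BIX versus FAD table it was 0.52 and 0.87 in the FAD-BIX mice and 0.79 and 1.69 in the FAD mice, while the other regions had 1.11 and 1.51 in FAD-BIX, against 1.08 and 2.04 in FAD. FAD 2 stood highest in both tables, and FAD 1 lay closer to the WT and FAD-BIX mice than to FAD 2. The peak calls went the same way: of the 741 regions of the FAD versus WT table, 174 and 530 (23.5% and 71.5%) were called in FAD 1 and FAD 2, against 130 and 184 in WT 1 and WT 2, and 543 (73.3%) were called in 1 library only. For FAD-BIX versus FAD, 132 and 179 were called in FAD-BIX, against 157 and 546 in FAD. Most regions were therefore listed through FAD 2, and its high ratio is not independent of that listing. Averaged over the 4 mice, 292 of the 741 regions (39.4%) were more than 2-fold above input in the FAD versus WT table, against 74.6% of the others, and 363 (49.0%) against 78.7% in the FAD-BIX versus FAD table. On that mean 10 and 9 of them lay below input, but in single mice 107 and 43 did in FAD 1 and FAD 2, against 172 and 140 in WT 1 and WT 2, and for FAD-BIX versus FAD 177 and 109 did in FAD-BIX, against 114 and 34 in FAD. ChIP exceeded input in all 4 mice at 390 regions (52.6%, against 50.4% of the others) and at 410 (55.3% against 53.7%). Because input is the denominator of the ratio and chose the regions, these values are a description with no test.

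**Figure D1:**
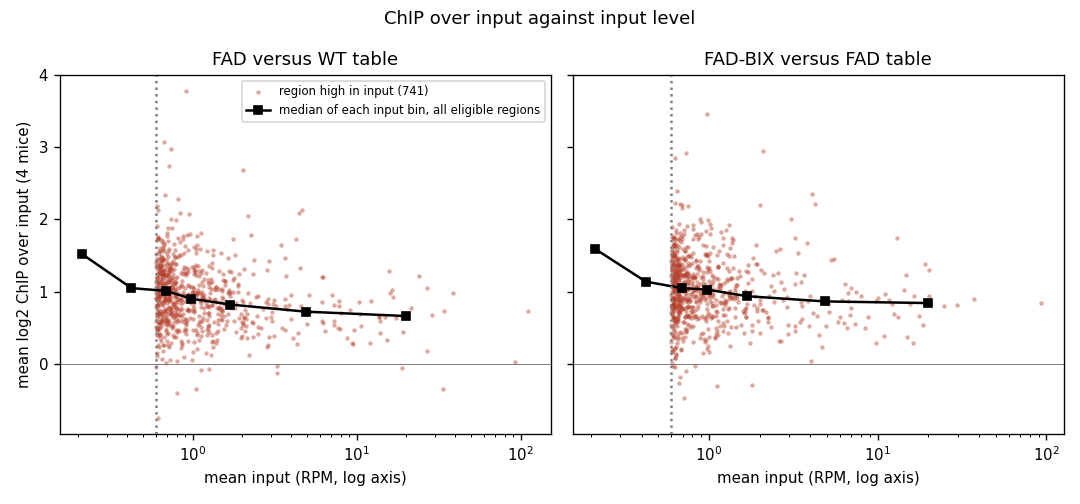
Mean log2 ChIP over input (vertical axis) against mean input in RPM (horizontal log axis) in each table; red points are the 741 regions high in input, black squares are medians of input bins over all eligible regions, and the dotted line is the input minimum of 0.6 RPM. The bin medians go down as input goes up, to 0.66 in the FAD versus WT table and 0.84 in the FAD-BIX versus FAD table above 10 RPM.

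Averaged over the 4 mice, the ratio went down from bin to bin of the input level. In the FAD versus WT table its median was 1.52 on the log2 scale in regions under 0.3 RPM of input, 1.05 from 0.3 to 0.6 RPM, 1.01 from 0.6 to 0.8 RPM and 0.66 in the 28 regions above 10 RPM. In the FAD-BIX versus FAD table it was 1.59, 1.14, 1.05 and 0.84 over the same bins. Within single mice the median went down at every step only in FAD 2, where it was 2.34 under 0.3 RPM, 1.98 from 0.6 to 0.8 RPM and 1.18 above 10 RPM. In the other mice the bin under 0.3 RPM was the highest, and the order above 0.3 RPM was not steady. In FAD 1 the median was 0.72 from 0.3 to 0.6 RPM and 0.76 above 10 RPM. In WT 2 it was 0.46 from 0.3 to 0.6 RPM, 0.82 from 0.8 to 1.2 RPM and 0.42 above 10 RPM, and in FAD-BIX 1 it lay between 0.45 and 0.59 in all bins above 0.3 RPM.

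**Figure D2:**
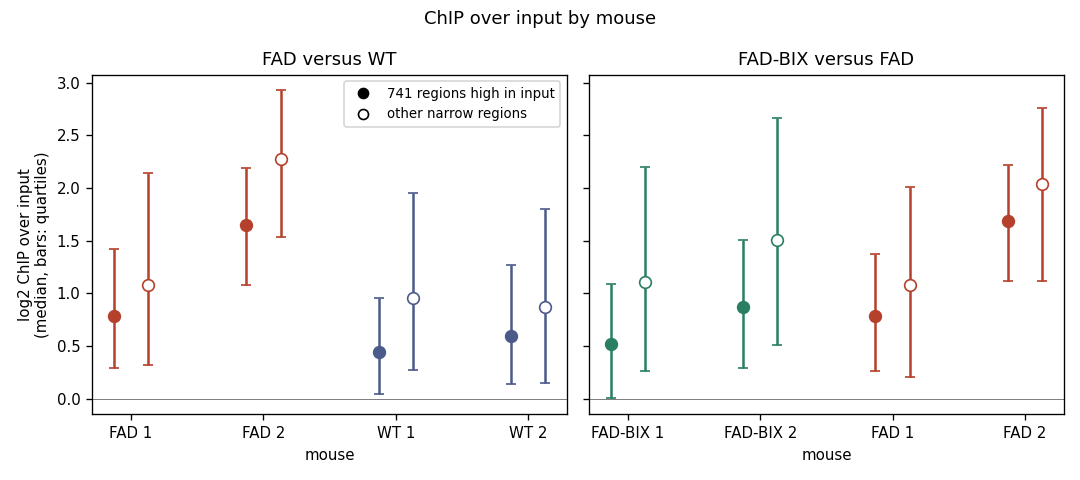
Median log2 ChIP over input in each mouse, with bars from the first to the third quartile; filled points are the 741 regions high in input and open points the other eligible regions. In all mice of both tables the filled point lies below the open one, and FAD 2 is the highest in each set.

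The regions with the most input reads were few and lay both inside and outside genes. The highest was chr15:75086378-75086929, between Gm5960 and Gm52219, with a mean input of 111 RPM: 3976 and 5396 ChIP reads in FAD 1 and FAD 2 and 3278 and 5095 in WT 1 and WT 2, over 1295 and 1825 input reads in FAD, against 2050 and 2559 in WT. Its log2 ChIP over input was 0.82 and 1.10 in FAD, against 0.63 and 0.38 in WT; ChIP exceeded input in each of the 4 mice. The next, chr17:39847557-39848068, is annotated by RefSeq as Rn18s-rs5, a sequence related to the gene for 18S ribosomal RNA, which is present in the genome in many tandem copies. It had 92.0 RPM of mean input, and its log2 ratio was 0.11 and 0.55 in FAD, against 0.07 and -0.67 in WT, near the input level. It was followed by chr2:181917432-181918112 at Gm40034 (38.7 RPM) and by a region in an intron of Kctd16, which encodes an auxiliary subunit of GABA-B receptors (34.0 RPM). An intron of Aida (chr1:183299142-183299581), an axin-interacting protein gene, had 26.8 RPM and a log2 ratio of 1.34 and 1.45 in FAD, against 0.47 and 0.91 in WT.

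The region in the first intron of Mdga2 (chr12:67059201-67059684) departed from the others of that depth. Mdga2 encodes a cell adhesion protein that limits synapse formation. The region had 509 and 305 ChIP reads in FAD 1 and FAD 2, against 747 and 957 in WT 1 and WT 2, and 434 and 816 input reads in FAD, against 358 and 606 in WT. Both FAD mice were below both WT mice in ChIP, but the input counts overlapped between the groups. Its log2 ChIP over input was -0.57 and -1.88 in FAD, against 1.02 and 0.04 in WT. The difference did not pass the test over all regions with both FAD mice (log2 fold of the ratio -2.49, adjusted p = 1.00, edgeR). With FAD 2 as the only FAD mouse the log2 folds were -3.57 for the ratio, 1.66 for the input and -2.26 for the ChIP counts. A peak was called there in WT 1 only, so the lower ratio in FAD is not independent of that listing.

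At the other end, chr12:23477698-23478201, which overlaps Gm40862, had the highest mean log2 ChIP over input, 3.78. Its ChIP reads were 189 and 222 in FAD, against 435 and 255 in WT, over 7 and 27 input reads in FAD, against 12 and 11 in WT. In the FAD-BIX versus FAD table the matching region was again the highest, at 3.46, with 179 ChIP reads in each FAD-BIX mouse. A region upstream of Scel, which encodes a cornified envelope protein of skin (chr14:103464270-103464934), and one upstream of Vmn1r2, a vomeronasal receptor gene (chr4:3164997-3165476), followed with 3.08 and 2.74. The lowest mean in the FAD versus WT table was -0.75, at chr13:12911115-12911519, with 11 and 0 ChIP reads in FAD, against 11 and 38 in WT.

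Larger shares of these regions than of the others lay in exons, near gene starts and near chromosome starts. Between genes lay 472 regions (63.7%) of the FAD versus WT table, with 212 (28.6%) in an intron and 53 (7.15%) in an exon, where the other regions had 72.4%, 24.4% and 2.82%. Between genes lay 490 regions of the FAD-BIX versus FAD table, with 203 in an intron and 43 in an exon. The median distance to a transcription start was 11684 bp against 41050 bp in the first table and 13447 bp against 41858 bp in the second. Within 2 kb of a transcription start lay 122 regions (16.5%) against 5.66% of the others, and 108 (14.6%) against 5.58% in the second table. The first 5 Mb of the chromosomes held 92 regions (12.4%) against 1.58% of the others, 19 of them on chromosome 4, 18 on chromosome 17 and 14 on chromosome 16. Unplaced contigs held 81 (10.9%) and 80 (10.8%) of the regions, against 0.0857% and 0.0684% of the others. By chromosome, 8 and 4 held the most in the FAD versus WT table (90 and 82), and 4 and 8 in the other (87 and 68).

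Of the regions, 337 (45.5%) and 323 (43.6%) had a named gene in the files, and gene families with many copies recurred among them. Genes with predicted-gene (Gm) names held 55 regions (7.42%, against 2.399% of the others) in the FAD versus WT table and 58 (7.83% against 2.22%) in the FAD-BIX versus FAD table. Zinc finger (Zfp) genes, which mostly encode KRAB-type repressors of transcription, held 15 regions in each table (2.02% against 0.548% in the first). By RefSeq overlap, Gm9597 carried 15 and 11 regions, Zfp978 carried 13 and 12, and Sfi1, which encodes a centriole protein, carried 9 in each table. Mroh2a, next to the Ugt1a genes, carried 8 in each. Snhg14, a long noncoding host transcript of small nucleolar RNAs, carried 6 in each, and Sp140, a nuclear body protein gene of immune cells, carried 6 and 4. Olfactory receptor genes (Olfr) held 7 regions in each table (0.945%, against 1.73% of the others, in the first). Speer genes held 6 and 4, vomeronasal Vmn2r genes held 4 in each, and Ugt genes held 4 and 3. No region carried the name of a defensin, serpin or Skint gene in the files, and no miRNA entry overlapped a region. Such gene names were rare among the others too (0.049%, 0.095% and 0.024% in the first table).

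Many of the regions lay side by side. With regions under 100 kb apart linked, the FAD versus WT list formed 319 groups, of which 262 were single regions, while 34 clusters of at least 5 held 418 of the 741 (56.4%). The FAD-BIX versus FAD list formed 362 groups, with 296 single regions and 32 clusters of at least 5 that held 355 (47.9%). The clusters with the most regions were on chromosome 14 (chr14:43250910-43415516, 28 regions, at Gm8126, Gm8138, Gm9732 and 1700001F09Rik) and on chromosome 4 (chr4:147026463-147519889, 27 regions, at Rex2, Zfp978, Zfp988 and Zfp991). The contig JH584304.1 held 24 regions within 60.0 kb, with a median mean input of 9.84 RPM against 0.778 RPM in the cluster of chromosome 14. Their summed ChIP signal was 350 and 592 RPM in FAD and 276 and 429 RPM in WT, over input sums of 213 and 299 RPM in FAD and 277 and 339 RPM in WT. The FAD and WT mice overlapped on this contig in input and in ChIP.

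FAD was compared with WT in ChIP counts, input counts and their ratio, each fitted with edgeR's quasi-likelihood test and Benjamini-Hochberg adjustment over all regions of the table that passed a filter on low counts. Of the 741 regions, 739 were tested in ChIP, and 0 passed an adjusted p of 0.05 (0% of all regions), with a smallest adjusted p of 0.832. DESeq2 also called 0, where 5 were higher (0.675%, against 0.195% of all regions) and 41 were lower (5.53% against 2.71%) at an unadjusted p under 0.05. At an unadjusted p under 0.05 the edgeR test had 8 higher in FAD (1.08%, against 0.918% of all regions) and 39 lower (5.28%, against 4.97%), shares near the background. Of these 39, 28 lay in the chromosome 8 block described below, which held 53 of the 741 regions. In DESeq2 30 of the 41 lower regions lay there, so the lower shares rested largely on that block. The split turned on the FAD mice: without the mouse labelled FAD 1 there were 2 higher (0.271% against 0.171%) and 115 lower (15.6% against 9.56%), and without FAD 2 there were 28 higher (3.78% against 1.7%) and 18 lower (2.43% against 1.79%). In input 1111 regions of the table had enough reads to be tested, and 683 of them (61.5%) were the regions described here, so the share over all tested regions is mostly their own. They gave 0 calls (0% of all tested), with 12 higher (1.76% against 2.16%) and 13 lower (1.90% against 1.8%) at an unadjusted p under 0.05. The ratio gave 0 calls among 741 (0% of all regions), with 5 higher (0.675% against 1.63%) and 32 lower (4.32% against 2.07%); without FAD 1 there were 6 higher (0.81% against 2.63%) and 51 lower (6.88% against 2.78%). For the ratio at an unadjusted p under 0.05, limma gave 5 higher (0.675% against 4.83%) and 3 lower (0.405% against 1.58%). Without the mouse term, edgeR gave 12 higher (1.62% against 3.48%) and 29 lower (3.91% against 4.16%). The median log2 fold of the ChIP counts was -0.14 with TMM scaling and 0.46 with scaling to library totals, where all regions had 0.01 and 0.64, so the direction depended on the scaling while the difference from all regions was -0.15 and -0.19. Without FAD 1 the median was -0.33, against 0.01 over all regions, and without FAD 2 it was -0.01 against -0.11. Scaling to totals turned the split at an unadjusted p under 0.05 to 24 higher (3.25%, against 2.31% of all regions) and 11 lower (1.49% against 0.248%) in ChIP, to 5 (0.732% against 0.81%) and 26 (3.81% against 3.96%) in input, and to 53 (7.15% against 3.74%) and 11 (1.48% against 0.315%) in the ratio, so the split over all regions turned as well.

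In RPM, both FAD mice lay above both WT mice in ChIP at 218 regions (29.4%, against 29.9% of all regions) and below at 50 (6.75% against 6.91%). Of these 50, 26 lay in the chromosome 8 block described below. In input both FAD mice lay above both WT mice at 51 (6.88% against 12.1%) and below at 188 (25.4% against 22.6%). FAD 2 alone lay above both WT mice in ChIP at 568 regions (76.7% against 71%) and below at 83 (11.2% against 12.2%), and in input above at 145 (19.6% against 23.9%) and below at 377 (50.9% against 41.5%). A peak was called in FAD 2 at 530 of the 741 regions (71.5%, against 64.3% of the others). These ChIP counts and the ChIP tests above are therefore not independent of the listing. The input counts and input tests are not independent of the selection, which used the same inputs. The authors' deposited table gave p under 0.05 for 19 of the regions higher in FAD (2.56%, against 2.14% of all regions) and 1 lower (0.135% against 0.533%), with a q-value of 1 throughout. The median log2 fold change of the regions in the authors' deposited table was 0.76, against 0.90 over all regions.

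The ChIP regions with the smallest p were at Myh6 among those higher in FAD and on chromosome 8 among those lower. The region in an intron of Myh6 (chr14:54949791-54950605), which encodes the cardiac alpha-myosin heavy chain, had 275 and 25 ChIP reads in FAD 1 and FAD 2, against 21 and 8 in WT, with 8 and 23 input reads in FAD, against 14 and 10 in WT. The high value was that of the library labelled FAD 1 alone: the log2 fold was 3.22 with it (SE 1.09, adjusted p = 0.832, edgeR) and -0.036 without it. That library also had the high sum over heart muscle genes, 91.8 RPM. A region in an intron of Dip2c (chr13:9596365-9596971), a gene of the disco-interacting protein family, had 20 and 46 reads in FAD, against 7 and 10 in WT, without overlap (log2 fold 1.47, SE 0.52, adjusted p = 0.832, and 1.65 with adjusted p = 0.414 without FAD 1, edgeR). In an intron of Gm15319 (chr8:20339178-20339531) there were 9 and 13 ChIP reads in FAD, against 38 and 58 in WT, over 8 and 3 input reads in FAD, against 20 and 15 in WT. Both FAD mice were below both WT mice in ChIP and in input there (ChIP log2 fold -2.52, SE 0.46, adjusted p = 0.832, edgeR). Without FAD 1 the log2 fold of this region was -2.64. A peak was called there in WT 2 only, so its lower ChIP in FAD is not independent of that listing.

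That region belongs to a block of chromosome 8 (chr8:19707657-20948615), singled out after its values were seen, which held 53 of the 741 regions and is annotated mostly by predicted genes such as Gm15319, Gm20778 and Gm21119. Its summed ChIP signal was 83.3 and 130.0 RPM in FAD 1 and FAD 2, against 130.3 and 163.5 RPM in WT 1 and WT 2. Its summed input was 51.5 and 42.5 RPM in FAD, against 90.1 and 97.6 RPM in WT. Input was thus lower in both FAD mice, and the ChIP sums nearly touched. The same inputs chose the regions, so the input difference is not independent of the selection. At chr8:20339178-20339531, for example, input was 0.627 and 0.265 RPM in FAD, against 0.884 and 0.923 RPM in WT. The log2 ratio of the sums was 0.69 and 1.61 in FAD, against 0.53 and 0.74 in WT. Both FAD mice lay below both WT mice at 26 of the 53 regions in ChIP (49.1%, against 6.91% of all regions) and at 30 in input (56.6% against 22.6%), and above at 3 in each (5.66%, against 29.9% in ChIP and 12.1% in input). FAD 2 alone was below both WT mice in ChIP at 27 (50.9%, against 12.2% of all regions) and above at 20 (37.7% against 71%). In input it was below at 44 (83.0% against 41.5%) and above at 5 (9.43% against 23.9%). The median log2 fold was -1.08 for ChIP, negative at 50 of 53 regions, and -0.83 for input, negative at 42 of 52 tested, while that of the ratio was -0.10. Without FAD 1 the medians were -1.48, -0.74 and -0.04. No region of the block passed the adjusted threshold with all libraries. At an unadjusted p under 0.05, 28 were lower (52.8%, against 4.97% of all regions) and 2 higher (3.77% against 0.918%) in ChIP, and 8 lower (15.4% against 1.8%) and 1 higher (1.92% against 2.16%) in input. Because the block was picked for these values, the shares are a description. With library totals the ChIP count of 28 was 9 (17%, against 0.248% of all regions). The count fell without FAD 2 or either WT mouse and rose without FAD 1. The share over all regions changed between these fits too.

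For regions listed in both tables, reads could be set side by side for all 6 mice. In 18 such regions of the chromosome 8 block the summed input was 23.8 and 17.2 RPM (again without the added read) in FAD-BIX, 17.4 and 18.2 in FAD, and 35.3 and 48.8 in WT, so that both FAD and both FAD-BIX mice were below both WT mice. Summed ChIP was 34.0 and 32.2 in FAD-BIX, 35.6 and 62.4 in FAD, and 48.1 and 58.7 in WT, where FAD 2 was the highest. The Speer genes and their predicted relatives (chr5:14914317-15679278, 20 regions) had another order in ChIP: 23.4 and 23.9 in FAD-BIX, 54.1 and 45.4 in FAD, and 21.5 and 26.1 in WT. There both FAD mice were above all other mice in ChIP, FAD 2 also when taken alone, while in input FAD 1 was the highest and FAD 2 the lowest (18.1 and 11.4 in FAD-BIX, 32.4 and 8.08 in FAD, and 16.2 and 13.4 in WT). The block at the Ugt1a genes, which encode enzymes that conjugate bilirubin and drugs (chr1:88212344-88307487, 17 regions), had 45.6 and 39.7 in FAD-BIX, 46.5 and 78.9 in FAD, and 36.1 and 47.1 in WT in ChIP, with FAD 2 standing apart. Both comparisons share the FAD libraries, so a peak called in FAD can list a region in both. The FAD ChIP sums are therefore not independent of that listing. The inputs of each comparison also chose its regions. The blocks were picked with their values known, so no test is given for them.

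**Figure D3:**
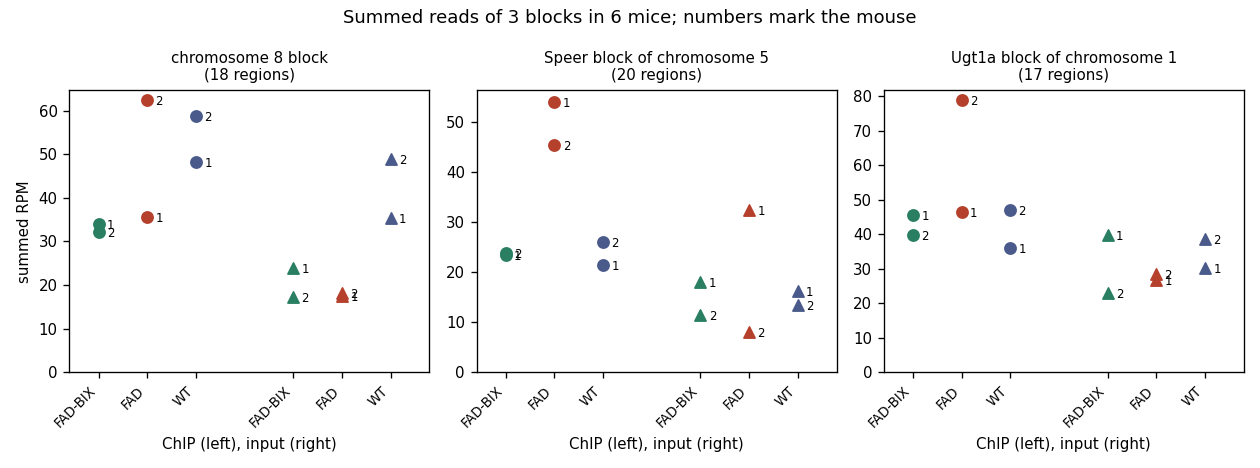
Summed RPM in 3 blocks of regions listed in both tables, for each of the 6 mice; circles are ChIP and triangles input, ordered FAD-BIX, FAD and WT, and the small numbers mark the mouse. In the block of chromosome 8 the WT inputs (35.3 and 48.8) are above all others, and in the Speer block of chromosome 5 the FAD ChIP values (54.1 and 45.4) are.

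FAD-BIX was compared with FAD in the same way. In ChIP 739 regions were tested and 0 passed (0% of all regions), with a smallest adjusted p of 0.897 in edgeR, and DESeq2 also called 0, where 5 were higher (0.675%, against 1.63% of all regions) and 5 were lower (0.675% against 0.323%) at an unadjusted p under 0.05. At an unadjusted p under 0.05 there were 8 higher in FAD-BIX (1.08%, against 3.93% of all regions) and 15 lower (2.03% against 1.18%). Without FAD 1 these were 41 higher (5.53% against 4.21%) and 7 lower (0.945% against 0.186%), and without FAD 2 they were 3 higher (0.405% against 0.511%) and 63 lower (8.51% against 1.23%). In input 706 regions of the table were tested, 500 of them (70.8%) among those described here, which gave 0 calls (0% of all tested), with 1 higher (0.2% against 0.142%) and 2 lower (0.4% against 0.567%); the other 241 had too few reads to be tested. The ratio gave 0 calls among 741 (0% of all regions), with 13 higher (1.75% against 1.46%) and 8 lower (1.08% against 0.744%); without FAD 1 there were 20 higher (2.7% against 0.862%) and 4 lower (0.54% against 0.434%). The median log2 fold of the ChIP counts was -0.07, against 0.03 over all regions, with library totals -0.40 against -0.34, and without FAD 1 -0.05 against 0.10. Scaling to totals turned the split at an unadjusted p under 0.05 to 1 higher (0.135%, against 0.441% of all regions) and 17 lower (2.3% against 1.47%) in ChIP, to 3 (0.6% against 0.425%) and 0 (0% against 0.142%) in input, and to 2 (0.27% against 0.457%) and 12 (1.62% against 0.9%) in the ratio. In RPM, both FAD-BIX mice lay below both FAD mice in ChIP at 204 regions (27.5%, against 19% of all regions) and above at 25 (3.37% against 12.8%). In input they lay below at 57 (7.69% against 12.5%) and above at 145 (19.6% against 18.9%). Against FAD 2 alone both FAD-BIX mice lay below in ChIP at 592 regions (79.9% against 54.8%) and above at 64 (8.64% against 20.5%), and in input below at 148 (19.97% against 24.4%) and above at 301 (40.6% against 44.1%). A peak was called in FAD 2 at 546 of the 741 regions (73.7%, against 49.6% of the others). These ChIP counts and the ChIP tests are therefore not independent of the listing. Nor are the input counts and input tests independent of the selection, which used the same inputs. The authors' deposited table had 0 of the regions higher (0%, against 0.778% of all regions) and 15 lower (2.02% against 1.31%) at p under 0.05.

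The Actc1 region (chr2:114050266-114050686), in the gene for cardiac alpha-actin, had the smallest p among those lower in FAD-BIX. It had 23 and 12 ChIP reads in FAD-BIX 1 and FAD-BIX 2, against 219 and 13 in FAD 1 and FAD 2, and the WT mice had 6 in each. Only the library labelled FAD 1 was high: the log2 fold was -2.54 (SE 0.81, adjusted p = 0.897, edgeR), and 1.07 without it. The sum over heart muscle genes was 98.8 RPM in that library, and its part in the result was not tested. The deepest region, on chromosome 15 (chr15:75086378-75086975 in this table), had 2886 and 2598 ChIP reads in FAD-BIX, against 4063 and 5498 in FAD, without overlap, over 1295 and 960 input reads in FAD-BIX, against 1343 and 1854 in FAD. Its log2 fold was -0.38 in ChIP (SE 0.12, adjusted p = 0.897, edgeR) and -0.63 in input, and that of the ratio was 0.15. Without FAD 1 the ChIP fold was -0.36 and passed the threshold (adjusted p = 0.0272, edgeR). Of the regions higher in FAD-BIX, chr3:3051388-3052228 had the smallest p, with 42 and 40 ChIP reads in FAD-BIX, against 21 and 10 in FAD, over 0 and 18 input reads in FAD-BIX and 10 in each FAD mouse (ChIP log2 fold 1.74, SE 0.52, adjusted p = 0.897, and 2.66 with adjusted p = 0.130 without FAD 1, edgeR). A region near Tdpoz4, of an oocyte-expressed gene family (chr3:93805941-93806648), had the smallest p of the input test, with 20 and 13 input reads in FAD-BIX, against 1 and 2 in FAD (adjusted p = 0.997, and 0.972 without FAD 1, edgeR), and its ChIP reads overlapped, 37 and 27 in FAD-BIX, against 26 and 43 in FAD. The region near Tdpoz4 reached the input minimum through FAD-BIX, with 1.43 and 1.01 RPM there against 0.139 and 0.199 RPM in FAD. On chromosome 8 the block above held 35 regions here. Its median log2 fold was -0.07 in ChIP and 0.04 in input, with 0 regions at an unadjusted p under 0.05.

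Leaving out 1 library made calls appear, most of them where a FAD library was left out. In ChIP, FAD versus WT without the library labelled FAD 1 called 27 of the 739 regions tested lower (3.65%, against 0.359% of all regions), 11 of them in the chromosome 8 block and 2 in Dock2. Without FAD 2 it called 5 higher (0.675% against 0.0694%), at Actc1, Myh6 and 3 regions of Trpv4, which encodes a cation channel. In input, 9 were higher without FAD 1 (1.22% against 0.254%), and 2 higher (0.271% against 0.0485%) and 1 lower (0.136% against 0.0162%) without FAD 2. In the ratio, 5 were lower without FAD 1 (0.675% against 0.0346%) and 1 without WT 1 (0.135% against 0.00346%). FAD-BIX versus FAD in ChIP called 10 higher (1.35% against 0.059%) and 1 lower (0.135% against 0.00236%) without FAD 1, 5 lower without FAD 2 (0.676% against 0.048%), and 1 lower without FAD-BIX 1 (0.135% against 0.0323%). In input it called 2 lower without FAD-BIX 2 (0.297% against 0.09%) and 2 lower without FAD 2 (0.293% against 0.0904%). Each of these fits left 1 mouse in a group, which was assumed to vary like the other group.

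Mice of 1 group differed from each other, though by less at these regions than at the others, which held fewer reads. Differences between mice of a group are log2 RPM differences with the median of the set subtracted. An offset shared by the regions is thus left out. The median absolute log2 difference in ChIP was, for FAD versus WT, 0.47 between the FAD mice and 0.32 between the WT mice, where the other regions had 0.61 and 0.68. In input it was 0.73 and 0.52, where the other regions had 1.00 and 0.79. Read counting alone would give 0.21 and 0.23 in ChIP, against 0.36 and 0.40 at the others. In input it would give 0.42 and 0.33, against 0.81 and 0.65. Relative to that expectation, the FAD ChIP and both input differences were larger at these regions than at the others. The WT ChIP difference was smaller. More than 4-fold apart in ChIP were 35 regions between the FAD mice (4.72%, against 8.12% of the others), 33 of them higher in FAD 1, and 1 between the WT mice (0.135% against 5.71%). In the other table the median ChIP difference was 0.36 between the FAD-BIX mice and 0.45 between the FAD mice, and 2 and 35 regions were more than 4-fold apart (0.270% and 4.72%, against 7.77% and 8.12%). In input 62 regions were more than 4-fold apart between the FAD mice (8.37% against 13.6%) and 35 between the WT mice (4.72% against 13.1%), while for FAD-BIX versus FAD there were 68 between the FAD-BIX mice (9.18% against 15.1%) and 61 between the FAD mice (8.23% against 13.9%). The highest of the 4 inputs exceeded the lowest by a median of 2.45 times in the FAD versus WT table and 2.76 times in the other, and by at least 4 times at 161 and 202 regions. At 17 and 24 regions an input library held 0 reads, so a high mean there rested on the remaining inputs. The largest ratio of the highest to the lowest input was 61.8, in an intron of AC069561.5 (chr9:38654138-38654388), where input held 2 and 40 reads in FAD-BIX, against 180 and 4 in FAD.

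Some single regions, chosen after their values were seen, split the FAD mice in ChIP and input alike. At the first 3 below, the mice within WT and within FAD-BIX were further apart in input than in ChIP. In an intron of Dock2, which encodes a Rac activator of immune cells (chr11:34681720-34682256), ChIP held 291 and 16 reads in FAD 1 and FAD 2 and 295 and 293 in WT, and input held 85 and 27 in FAD, against 125 and 39 in WT. The matching region had 136 and 205 ChIP reads in FAD-BIX and 27 and 88 input reads. FAD 2 was low there in ChIP, and the inputs of each group were several-fold apart. Between Gm36031 and Frmd4a, a scaffold protein gene (chr2:3964337-3964768), ChIP held 371 and 46 reads in FAD, against 361 and 404 in WT, and input 49 and 6 in FAD, against 78 and 13 in WT. FAD-BIX had 208 and 321 ChIP reads and 2 and 58 input reads there. At D5Ertd579e (chr5:36630445-36630872) ChIP held 158 and 2 reads in FAD, against 172 and 129 in WT, with 40 and 3 input reads in FAD, against 59 and 8 in WT. FAD 2 and WT 2 were the low inputs of their groups at these 3 regions, and FAD 2 was the low ChIP library. With both FAD mice the ChIP difference passed the threshold at none of them (adjusted p = 0.953 at Dock2, 0.939 upstream of Frmd4a and 0.979 at D5Ertd579e, edgeR). With FAD 2 as the only FAD mouse the ChIP log2 folds were -4.98, -3.83 and -6.92. These 3 regions were chosen with the low FAD 2 values known, and no peak was called in FAD 2 at any of them. The folds are therefore a description. The region with the smallest p for the ratio was chr14:43338817-43339753 at Gm9597. It had 42 and 3 ChIP reads in FAD, against 37 and 70 in WT. Its input held 17 and 15 reads in FAD, against 14 and 0 in WT. The log2 fold of the ratio was -4.32 (adjusted p = 0.735, edgeR), and -6.69 without FAD 1. A peak was called there in WT 2 only, so this ratio is not independent of the listing.

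**Figure D4:**
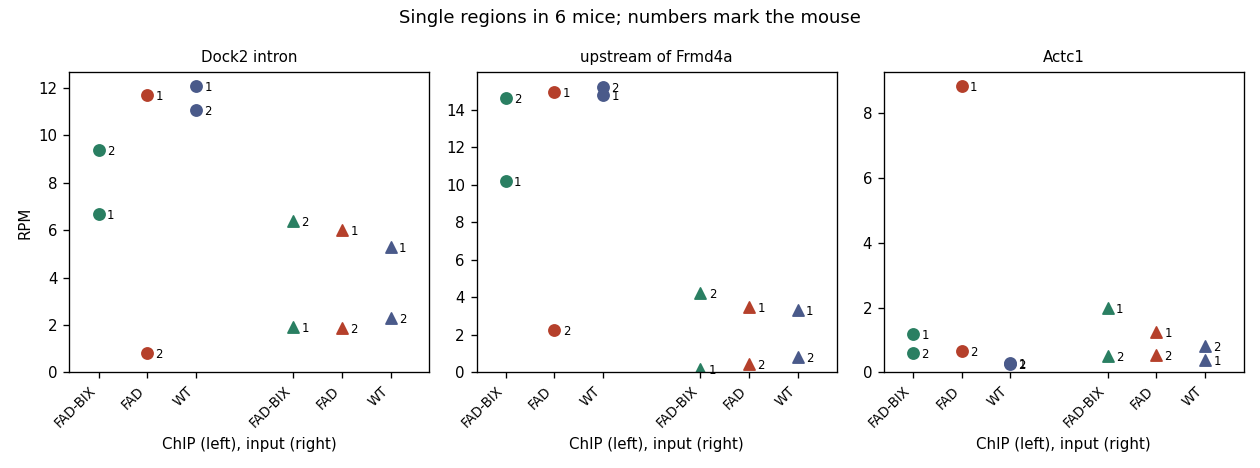
RPM of 3 single regions in the 6 mice (FAD and WT from the FAD versus WT table, FAD-BIX from the matching region of the other table); circles are ChIP and triangles input, and the small numbers mark the mouse. FAD 2 is low at Dock2 and upstream of Frmd4a, and at Actc1 the library labelled FAD 1 (219 reads) stands alone.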

How the data were processed

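H3K9me2 ChIP and input libraries of 6 mice were used. Per the submitters' processing notes, the authors used FastQC, Trimmomatic, BWA 0.7.12 and MACS2 2.1.0, and the notes name mm9; 99.7% of genes matched by symbol lay at their GRCm38.p6 positions, so coordinates are given as GRCm38. Whether the first base counts as 0 or 1, and which libraries had 50 bp single-end or 150 bp paired-end reads, were not given in the sources used here. The deposited counts are reads per region. The deposited RPM equalled the count plus 1 over the library total, and the deposited fold enrichment, a ratio, was ChIP RPM over input RPM of the same mouse. The authors' deposited log2 fold changes, p-values and q-values are quoted only where named. Regions were called per library and then joined.

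Rows were reduced to 1 per region. Counts of all regions were fitted with edgeR 4.0.16 (TMM, default filter with a minimum count of 10, threshold 0.05, no replicate block) in R 4.3.3, and ChIP over input as the assay by group interaction with mouse as a term. The scripts were tested on simulated data. DESeq2 1.42.0 and limma 3.58.1 were alternatives. Genes came from the files and from RefSeq. Regions named are the highest in input, the highest and lowest in ratio, those with the smallest p, those with the largest input ratio and the largest clusters, and others where said. The members, lists and blocks were chosen with earlier results of these data known. Each ChIP and input pair is labelled as 1 mouse.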

Additional observations from a re-analysis of the deposited data

How the results depend on the processing

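The number of regions was 1431 and 1471 with an input minimum of 0.5 RPM, in the FAD versus WT and FAD-BIX versus FAD tables, and 306 and 262 with 1 RPM; it stayed within 1.5 times under the other settings run, and the median ratios moved by less than the spread between mice. For FAD versus WT, scaling to library totals called 1 region in ChIP (0.135%, against 0.0072% of all regions) and 1 in the ratio (0.135% against 0.00426%), where TMM called 0. Leaving out 1 library or mouse called 0 to 27 regions in ChIP, 0 to 9 in input and 0 to 5 in the ratio. For FAD-BIX versus FAD, fitting without a filter on low counts called 1 region lower in ChIP (0.135% against 0.0321%), and leaving out 1 library called 0 to 11 in ChIP and 0 to 2 in input. Without FAD 1 the ChIP log2 fold changed sign at the Myh6 region (-0.036, with 4.22 as the highest value when another library was left out) and, for FAD-BIX versus FAD, at the Actc1 region (1.07, with -3.62 as the lowest). Of 368 values of single regions and of the chromosome 8 block under all alternatives, 347 kept their direction and side of the threshold, 13 passed it, 2 changed sign, 0 lost it and 6 counts moved by over 1.5 times. The causes were not tested. In the chromosome 8 block the number of inputs lower at an unadjusted p under 0.05 was 16 with library totals and 13 without a filter.

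With the replicate number as a block, 0 regions were called in every test, and 13 inputs of the chromosome 8 block were lower at an unadjusted p under 0.05 against 8 without it. The labels do not say that the numbers pair the mice, and over 332 shared regions the differences between mice 1 and 2 in input correlated at -0.16 between FAD-BIX and FAD and 0.19 between FAD and WT. A crossed pairing, added after the data were seen, called 0 in the FAD-BIX versus FAD inputs. With a median of 10 to 22 input reads in a region, the depth kept 58 and 241 of the regions out of the input tests.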
